A study of Danio rerio with 2 samples.

Results

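The genes described here encode Piwi proteins and factors that make piRNAs in the gonads of adult zebrafish. They were chosen by symbol from a list of 9 gene names (piwil1, piwil2, asz1, mael, henmt1, pld6, mov10l1, gtsf1 and rnf17), without regard to case. Of these, 7 were each carried by 1 Ensembl identifier among the 24539 genes measured. The names mael and mov10l1 were matched to no identifier and were not analysed here. The testis library and the ovary library each came from a pool of 3 wild-type adults, so there were 2 libraries in all and 1 for each organ. The study's title asks for sex-biased genes and pathways. No source used here gives the age or the strain of the fish.

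Piwi proteins are Argonaute-family proteins that bind small germline RNAs called piRNAs and use them to find and silence transposons. Long precursor transcripts are cut at the surface of mitochondria, loaded into a Piwi protein, trimmed and methylated at their 3′ end, and then amplified in granules beside the nucleus by reciprocal cutting between Piwi proteins. In zebrafish the pathway is known to act in germ cells of both sexes, and loss of either Piwi protein leads to loss of germ cells. The Piwi genes piwil1 and piwil2 are also called ziwi and zili.

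All values are FPKM, fragment counts divided by transcript length and by the size of the library. Each value is therefore a share of its own library, and levels of different genes can be set side by side as far as the transcript lengths used by the authors hold. With 1 library for each organ there was no spread between replicates and no test. The log2 ratio of testis over ovary was taken on the FPKM + 1 scale. Genes counted as higher in 1 of the organs, here termed called, where this ratio was 2-fold or more and the larger value was at least 1 FPKM. In a whole organ, fewer cells of a type and less RNA per cell cannot be told apart. Markers of oocytes, of spermatids and sperm and of testicular somatic cells went with the organ labels. All 14 measured oocyte genes were higher in the ovary library, and all 10 measured genes of spermatids and sperm and 10 of 11 of the testicular somatic cells were higher in the testis library. The lists were chosen with earlier results of these data known, so these counts are no independent check of the labels. Of 6 matched genes listed for ovarian somatic cells, 4 were higher in testis and 1 was higher in ovary. Of these, fshr and lhcgr, both higher in testis, were also on the list for testicular somatic cells. The listed cyp19a1a, foxl2a and foxl2b were not matched. The ovarian somatic list therefore gave no check of the ovary label.

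The Piwi and piRNA biogenesis genes were transcribed in both organs but in different proportions. All 7 stood above 5 FPKM in both libraries, from 30.63 to 531.89 FPKM in testis and from 9.16 to 385.03 FPKM in ovary. The Piwi gene piwil1, the Piwi gene piwil2 and the mitochondrial nuclease gene pld6 were higher in testis, none was called higher in ovary, and asz1, henmt1, gtsf1 and rnf17 differed by less than 2-fold. As background, testis was the higher organ for 45.1% of all 19053 genes with at least 1 FPKM, ovary for 16.6%, and 38.3% lay within 2-fold. Of the 7860 genes with at least 5 FPKM in each organ, as these 7 had, testis was the higher organ for 18.4%, ovary for 22.9%, and 58.7% lay within 2-fold. The median log2 ratio of the 7 genes was 0.56, beside 0.80 over the 19053 genes and -0.10 over the 7860.

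**Figure D1:**
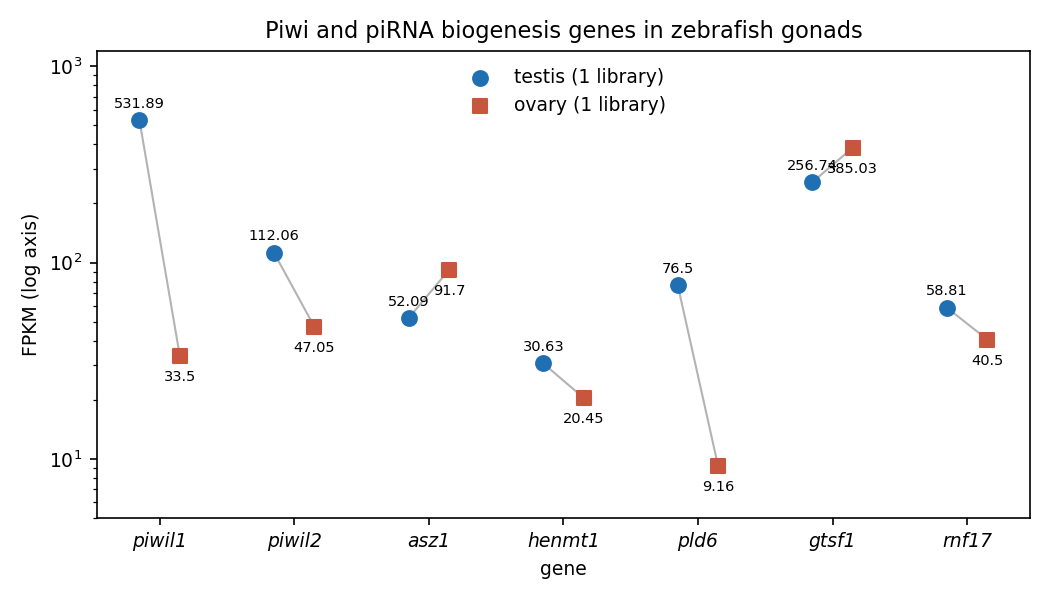
FPKM on a log axis for the 7 measured genes, with the testis library as circles, the ovary library as squares and a line joining the values of a gene. The steepest lines are those of piwil1 (531.89 FPKM in testis and 33.5 in ovary) and pld6 (76.5 and 9.16), while asz1 and gtsf1 slope upward to ovary.

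The Piwi genes differed in how far they leaned to testis. The gene piwil1 (PIWIL1, ENSDARG00000041699), whose protein in zebrafish mainly carries piRNAs antisense to transposons, stood at 531.89 FPKM in the testis library and 33.5 FPKM in the ovary library, a ratio of 15.9 and a log2 ratio of 3.95. It was the 109th most abundant gene of testis and the 3308th of ovary, out of 24539. The gene piwil2 (PIWIL2, ENSDARG00000062601), whose protein is its partner in the amplification cycle, had 112.06 FPKM in testis and 47.05 FPKM in ovary, a ratio of 2.38 and a log2 ratio of 1.23. The order of the Piwi genes was thus opposite in the 2 libraries: piwil1 was at 4.75 times the level of piwil2 in testis and at 0.712 times its level in ovary. This ratio within a library does not depend on how the libraries are scaled, and it was 6.67 times larger in testis than in ovary.

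The genes pld6 and asz1, of the mitochondrial steps, went apart. The product of pld6 (ENSDARG00000059951), known in flies as Zucchini, is the membrane-bound nuclease that in flies and mice cuts piRNA precursors. It read 76.5 FPKM in testis and 9.16 FPKM in ovary, a ratio of 8.35 and a log2 ratio of 2.93. In ovary it was the lowest of the 7 genes and the 7543rd of all genes, whereas in testis it ranked 4th of the 7. The product of asz1 (ASZ1, ENSDARG00000004823), also called Gasz, is a protein of the outer mitochondrial membrane that in mice holds biogenesis factors there. It read 52.09 FPKM in testis and 91.7 FPKM in ovary, a log2 ratio of -0.80, which is under 2-fold. Within a library, pld6 was at 1.47 times the level of asz1 in testis, against 0.0999 times in ovary.

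The most abundant of the genes in ovary was gtsf1 (ENSDARG00000000887), which encodes a small zinc finger protein that in mice and flies works with Piwi proteins. It had 256.74 FPKM in testis and 385.03 FPKM in ovary, a log2 ratio of -0.58. It ranked 236th of all genes in testis and 223rd in ovary, so that it lay in the top 1% of both libraries. Relative to piwil1, gtsf1 was at 0.483 times its level in testis and at 11.5 times its level in ovary.

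The genes henmt1 and rnf17 were close to even. The enzyme made from henmt1 (ENSDARG00000018871) places the methyl group on the 3′ end of mature piRNAs and is known in zebrafish to keep them from decay. It had 30.63 FPKM in testis and 20.45 FPKM in ovary, a log2 ratio of 0.56. The gene rnf17 (ENSDARG00000056387), for a RING finger and Tudor domain protein of germ granules in mice, had 58.81 FPKM in testis and 40.5 FPKM in ovary, a log2 ratio of 0.53. Their ratio to each other hardly moved, with rnf17 at 1.92 times the level of henmt1 in testis and 1.98 times in ovary.

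**Figure D2:**
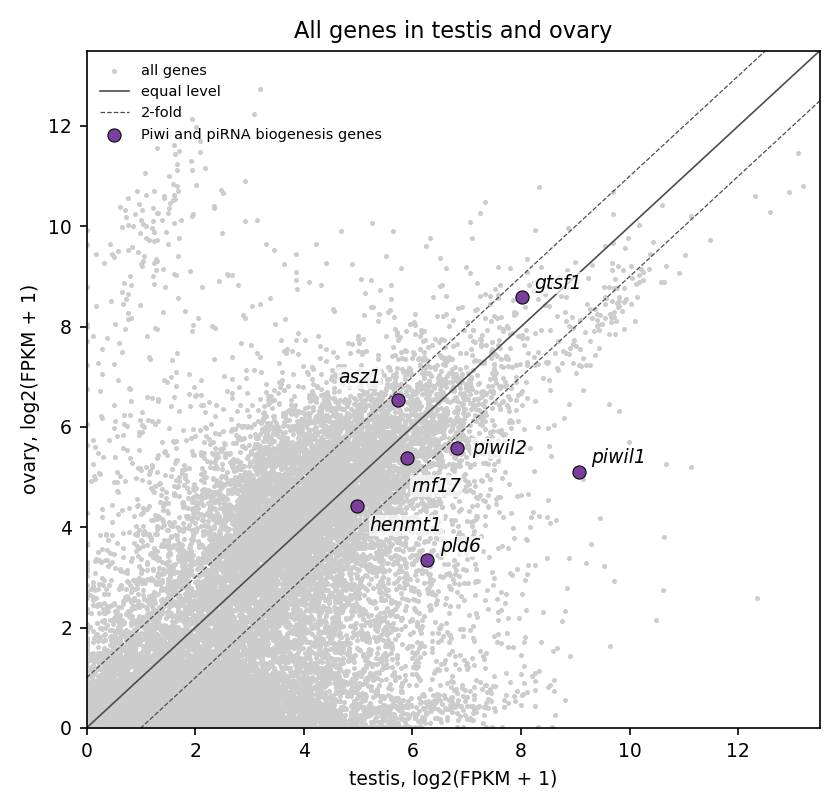
Each gene of the table as log2(FPKM + 1) in testis on the horizontal axis and in ovary on the vertical axis, with the 7 Piwi and piRNA biogenesis genes in purple. The solid line marks equal levels and the dashed lines 2-fold; piwil1, pld6 and piwil2 lie beyond the dashed line on the testis side and the other 4 lie between the dashed lines.

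The make-up of the group was set by different genes in each organ. The 7 genes summed to 1119 FPKM in testis and 627 FPKM in ovary, which is 0.199% of all FPKM in testis and 0.110% of all FPKM in ovary. In testis piwil1 made up 47.5% of this sum and gtsf1 22.9%, whereas in ovary piwil1 made up 5.34% and gtsf1 61.4%. The share of asz1 was 4.66% in testis and 14.6% in ovary, and that of pld6 was 6.84% in testis and 1.46% in ovary. Without piwil1, the other 6 genes summed to 587 FPKM in testis and 594 FPKM in ovary. Without both piwil1 and gtsf1, the other 5 genes summed to 330.1 FPKM in testis and 209 FPKM in ovary.

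**Figure D3:**
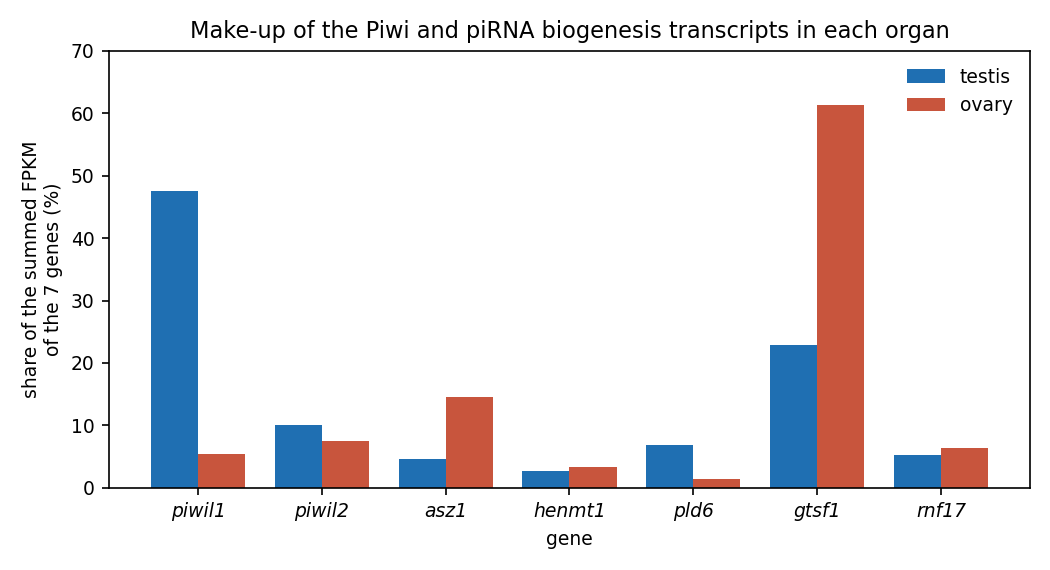
Share of each gene, in percent, in the summed FPKM of the 7 genes, with testis at the left and ovary at the right of each pair of bars. The tallest testis bar is piwil1 (47.5%) and the tallest ovary bar is gtsf1 (61.4%).

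The ratios between genes of one library do not change with the scaling. Of the 21 pairs of the 7 genes, 16 had a ratio that differed at least 2-fold between testis and ovary, and 10 differed at least 4-fold. Among all pairs of the 7860 genes with at least 5 FPKM in each organ, 58.8% differed at least 2-fold and 28.7% at least 4-fold. The 21 pairs share genes and are not separate observations. Apart from piwil2 with asz1 (4.19-fold), each of the pairs past 4-fold held piwil1 or pld6. The 5 pairs under 2-fold joined piwil1 with pld6 (a change of 1.90-fold), piwil2 with henmt1 (1.59-fold) and with rnf17 (1.64-fold), rnf17 with henmt1, and gtsf1 with asz1. The gene gtsf1 was at 4.93 times the level of asz1 in testis and at 4.20 times in ovary, a change of 1.17-fold. In the order of their ratios, piwil1 and pld6 stood at the testis end, piwil2, henmt1 and rnf17 in the middle, and gtsf1 and asz1 at the ovary end.

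Which of the genes counted as biased depended on the scale set between the libraries. The median log2 ratio over the 19053 genes was 0.80 towards testis, and setting it to 0 left piwil1 (3.15) and pld6 (2.13) higher in testis and put asz1 (-1.60) and gtsf1 (-1.38) past 2-fold in ovary. In that setting piwil2 read 0.44, rnf17 -0.27 and henmt1 -0.24, so that piwil2 was no longer called and the sign of the other 2 turned. The trimmed mean scale (shift 0.98) gave the same split of 2 genes higher in testis and 2 in ovary. So did a scale that set the median of 17 germ cell genes to 0 (shift 0.71). That last scale is not independent of the piRNA pathway. It shares 6 genes with the wider pathway list given below, and its median is the ratio of 1 of them, tdrd1. Of all genes with at least 1 FPKM, 25.1% were called towards testis and 30.3% towards ovary with the median set to 0. With the trimmed mean these shares were 28.9% and 33.6%, and with the germ cell genes 26.7% and 28.8%. The 2 and 2 of the 7 genes were near these shares. Over all genes, the share of called genes that were higher in testis was 73.1% as deposited, 45.3% with the median set to 0, 46.3% with the trimmed mean and 48.2% with the germ cell genes. The calls of piwil1 and pld6 thus held on each of these scales, while those of piwil2, asz1 and gtsf1 did not. A further scale, which dropped the 100 top genes of each library, changed no call of the 7. There piwil2 read 1.08, asz1 -0.97 and gtsf1 -0.75. Over the 7860 genes with at least 5 FPKM in each organ, as these 7 had, the median log2 ratio was -0.10. A scale with that median set to 0 was not tried.

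**Figure D4:**
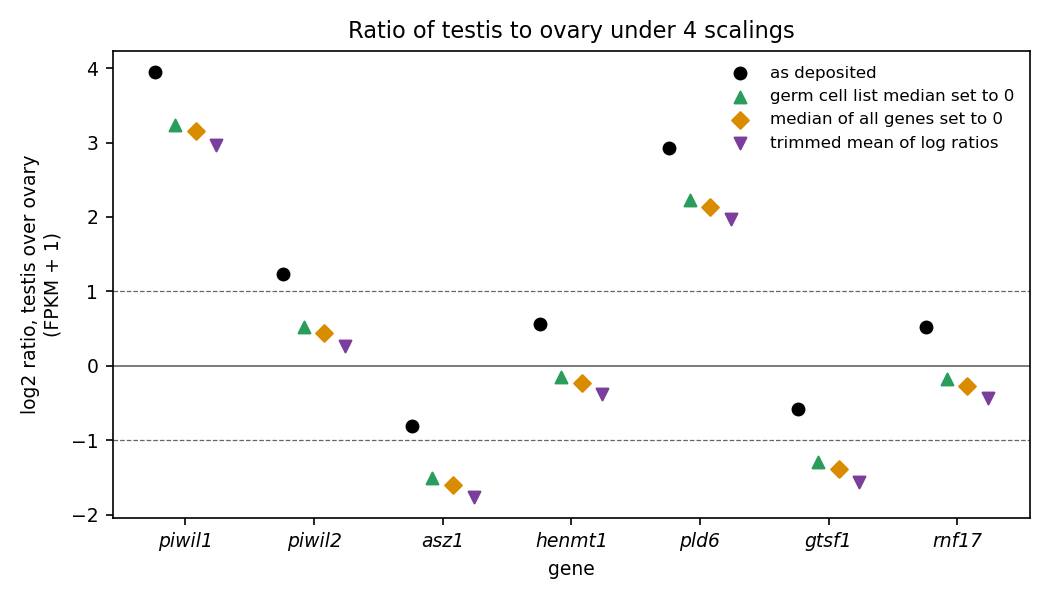
Log2 ratio of testis over ovary for each gene as deposited (circles), with the median of 17 germ cell genes set to 0 (upward triangles), with the median of all genes set to 0 (diamonds) and with a trimmed mean of log ratios (downward triangles). Dashed lines mark 2-fold. Of the 4 versions drawn, piwil1 and pld6 stay above the upper line in all. The gene piwil2 is above it as deposited only, and asz1 and gtsf1 are below the lower line in the 3 rescaled versions. The scale that dropped the 100 top genes of each library is not drawn.

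Set against the germ cell genes ddx4 and dazl, most of the group was lower in testis. The RNA helicase gene ddx4 (vasa), a standard germ cell marker of fish, had 440.49 FPKM in testis and 71.58 FPKM in ovary. The gene dazl, for an RNA-binding protein of germ cells, had 360.02 and 62.33. Per unit of ddx4, piwil1 was at 1.21 in testis and 0.468 in ovary, and pld6 at 0.174 and 0.128. The other 5 genes were lower per unit of ddx4 in testis than in ovary, with gtsf1 at 0.583 in testis and 5.38 in ovary, asz1 at 0.118 and 1.28, and piwil2 at 0.254 and 0.657. The median of the 7 log2 differences was -2.04 relative to ddx4 and -1.95 relative to dazl. However, ddx4 and dazl themselves leaned strongly to testis, with log2 ratios of 2.60 and 2.51 on the FPKM + 1 scale. Only 21.6% of the 19053 genes with at least 1 FPKM were 4-fold or more higher in testis on that scale. Most genes thus leaned less to testis than ddx4 and dazl, and the lower values are not particular to this group. Germ cell genes were themselves divided. The list of 17, which shares 6 genes with the wider pathway list given below, had 6 genes higher in testis, 5 higher in ovary and 6 within 2-fold. The 5 were nanos3 (1.02 FPKM in testis and 58.42 in ovary), dnd1 (7.74 and 23.8), ca15b (1.41 and 648.52) and, chosen after their values were seen, pou5f3 (0.95 and 56.61) and nanog (22.63 and 318.01). The median FPKM of the 17 genes was 10.16 in testis, the value of dazap1, and 40.99 in ovary, the value of tdrd6. Relative to these medians all 7 leaned to testis, and the median was 2.60. The reference was thus a different gene in each library, so this value does not show a lean against any fixed gene. With the median log2 ratio of the 17 genes (0.71) set to 0 instead, the median of the 7 was -0.15.

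Markers of germ cell stages differed more between the libraries than most of the 7 genes did. The median log2 ratio was 5.22 for genes listed jointly for spermatogonia and spermatocytes, 4.93 for spermatids and sperm and -7.27 for oocytes. For the 7 genes it was 0.56. The joint list was not split by cell type, so its median does not show spermatogonia apart from spermatocytes. Of 19 measured genes of spermatogonia and spermatocytes, 18 were higher in testis. The 19 ranged from 4.58 to 473.14 FPKM in testis and from 0.01 to 604.93 FPKM in ovary, where 2 were at the lowest listed value. The synaptonemal complex gene sycp1 had 473.14 FPKM in testis and 9.4 in ovary, and the cyclin gene ccna1, the exception, had 28.53 and 604.93. The oocyte genes summed to 191 FPKM in testis and 18177 FPKM in ovary, and those of spermatids and sperm to 2107 FPKM in testis and 29.5 FPKM in ovary. Testicular somatic genes summed to 7164 FPKM in testis and 50.7 in ovary, the ovarian somatic genes to 113 and 7.49, and 6 blood genes to 221 and 14.96. The part of cell makeup in the levels of the Piwi and piRNA biogenesis genes was not tested.

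The rest of the piRNA pathway was also mixed. Of 34 symbols written for the wider pathway, 23 were matched and 22 reached 1 FPKM; 10 of these leaned to testis past 2-fold, 4 to ovary, and 8 lay within 2-fold, beside 45.1% and 16.6% of all genes. The median log2 ratio of the 22 was 0.90, beside 0.80 over the 19053 genes with at least 1 FPKM. It was -0.10 over the 7860 genes with at least 5 FPKM in each organ. Of those 7860, 18.4% passed 2-fold towards testis and 22.9% towards ovary. All of the 22 but mybl1, hsp90aa1.1, tex15 and dnmt3ba had at least 5 FPKM in each organ. With the median ratio of all genes set to 0, 7 leaned to testis and 6 to ovary, beside 25.1% and 30.3% of all genes on that scale. There tdrd9, stk31 and tdrd6 were no longer called, and tdrd3 and tdrd5 passed 2-fold towards ovary. The gene under 1 FPKM was morc3b, at 0.31 FPKM in testis and 0.22 in ovary.

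The transcription factor gene mybl1 (A-MYB), which in mice switches on piRNA precursors and pathway genes during meiosis, had 35.68 FPKM in testis and 1.97 FPKM in ovary, a ratio of 18.1. The 3 helicase genes of the list were higher in testis. Testis was higher for 45.1% of all genes and 18.4% of the 7860 with at least 5 FPKM in each organ, as these 3 had. However, tdrd9 lost its call with the median ratio of all genes set to 0. The helicase genes were ddx4, given above, tdrd9 (77.11 FPKM in testis and 23.47 in ovary) and tdrd12 (30.92 and 5.76). Many Tudor domain proteins bind methylated arginines of Piwi proteins and build germ granules. Of the Tudor domain genes, tdrd9 and tdrd12 were counted with the helicase genes and rnf17 with the 7 members. Among the 8 other measured genes of this kind, 3 passed 2-fold towards testis and none towards ovary, beside 45.1% and 16.6% of all genes. These 8 all had at least 5 FPKM in each organ, and over the 7860 such genes the shares were 18.4% and 22.9%. The 3 of 8 are not a share of all Tudor domain genes. With the median ratio of all genes set to 0, 1 passed towards testis (tdrd7a) and 2 towards ovary (tdrd3 and tdrd5). On that scale 25.1% of all genes passed towards testis and 30.3% towards ovary. The 3 as deposited were tdrd7a (318.27 FPKM in testis and 62.62 in ovary), stk31 (84.15 and 37.16) and tdrd6 (86.06 and 40.99). The other 5 lay within 2-fold, with tdrd1 at 111.84 FPKM in testis and 68.04 in ovary, tdrkh at 77.92 and 56.71, tdrd15 at 18.58 and 16.43, tdrd3 at 29.8 and 41.3, and tdrd5 at 31.69 and 53.07.

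The remaining genes of the wider list that reached 1 FPKM went both ways and included all those higher in ovary. The ribonuclease gene parn, a poly(A) deadenylase whose relative in worms trims piRNA ends, had 22.33 FPKM in testis and 326.43 FPKM in ovary, 14.6-fold higher in ovary. The symbol pnldc1, also on the wider list, was not matched to an identifier. The co-chaperone gene fkbp6, which in mice and flies takes part in piRNA loading, read 10.85 FPKM in testis and 25.15 in ovary. The arginine methyltransferase gene prmt5, whose product modifies Piwi proteins, read 30.33 and 69.82. The histone methyltransferase gene setdb1a read 29.46 and 77.42. These enzymes have many other uses in the cell. In the other direction lay the chromatin gene morc3a (79.26 FPKM in testis and 6.94 in ovary), the chaperone gene hsp90aa1.1 (13.82 and 1.22) and the DNA methyltransferase gene dnmt3ba (7.78 and 1.27, chosen after its values were seen). Within 2-fold on the log2(FPKM + 1) scale were 3 genes whose products act in piRNA biogenesis or silencing in mice, namely exd1 (31.01 FPKM in testis and 21.51 in ovary), gpat2 (34.1 and 16.83) and tex15 (4.1 and 1.88, chosen after its values were seen).

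**Figure D5:**
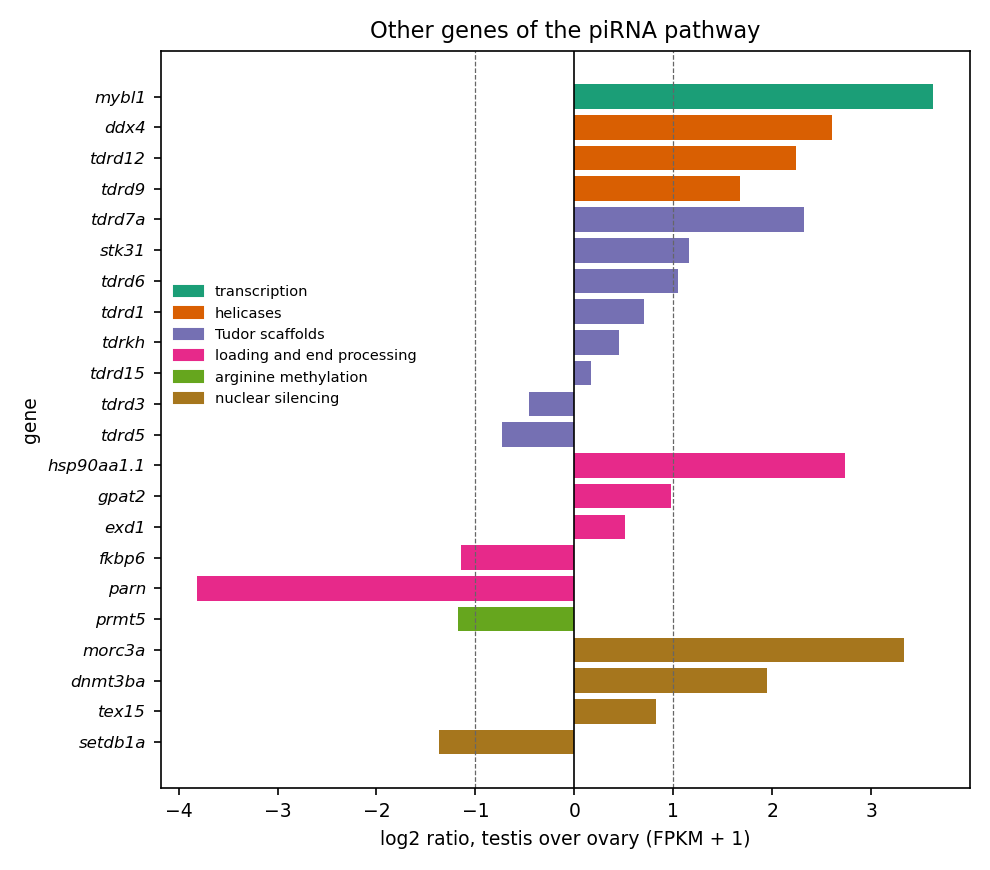
Log2 ratio of testis over ovary, on the FPKM + 1 scale, for the 22 other pathway genes that reached 1 FPKM, coloured by role. Dashed lines mark 2-fold; mybl1 and the 3 helicase genes lie on the testis side, and parn has the longest bar towards ovary.

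The microRNA and siRNA pathways, relatives of the piRNA pathway that act in all cells, had more genes past 2-fold towards ovary than towards testis. Under a 4-fold rule this turned, with 2 genes towards testis and 1 towards ovary, beside 21.6% and 6.19% of all genes. The 2 were mov10b.1 (9.11 FPKM in testis and 1.28 in ovary) and mov10b.2 (3.46 and 0.06), named after their values were seen. Both had low levels, so the turn rests on few and weakly measured genes. Among the genes past 2-fold towards ovary, lin28b was low as well (0.01 FPKM in testis and 2.21 in ovary, named after its values were seen). Of 16 measured genes of that list, 15 reached 1 FPKM, of which 2 passed 2-fold towards testis, 6 towards ovary and 7 towards neither, beside 45.1%, 16.6% and 38.3% of all genes. Over the 7860 genes with at least 5 FPKM in each organ, these shares were 18.4%, 22.9% and 58.7%. Not all of the 15 reached that level. The median log2 ratio of the 15 was -0.47, beside 0.80 over the 19053 genes with at least 1 FPKM and -0.10 over the 7860. The median of the list was negative on each scale tried. With the median ratio of all genes set to 0, 9 of its genes passed 2-fold towards ovary. On that scale 30.3% of all genes did. The nuclease gene snd1 had 15.76 FPKM in testis and 61.12 in ovary, and prkra, for a Dicer partner, had 7.9 and 36.45. The microRNA processing genes drosha and dgcr8 read 16.37 and 18.16 FPKM in testis and 50.03 and 50.38 FPKM in ovary. The silencing scaffold gene tnrc6a (14.77 in testis and 12.31 in ovary) and the Argonaute gene ago4 (16.91 and 23.84) lay within 2-fold.

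Piwi transcripts exceeded those of the Argonautes of this list in both organs. The sum of piwil1 and piwil2 was 644 FPKM in testis and 80.55 FPKM in ovary, while the 4 matched Argonaute genes, ago1, ago2, ago3a and ago4, summed to 20.59 FPKM in testis and 26.41 FPKM in ovary. Most of these Argonaute sums came from ago4 (16.91 FPKM in testis and 23.84 in ovary). The highest value of the other Argonaute genes was 2.02 FPKM, for ago3a in testis. Piwi transcripts were thus at 31.3 times the level of these Argonaute transcripts in testis and at 3.05 times in ovary. With piwil2 alone the ratios were 5.44 in testis and 1.78 in ovary. The symbol ago3b was not matched to an identifier, so the Argonaute sums leave it out.

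For each gene, the 2 genes with the nearest pair of log2(FPKM + 1) values over the 2 libraries were named as a description. For piwil1 these were the histone gene H3-3B (565.17 FPKM in testis and 30.25 in ovary, a distance of 0.17 log2 units) and FOXM1 (374.24 and 41.52, 0.59). The first of these is 1 of several H3.3 genes, among which the division of reads is uncertain. For pld6 they were efcab2 (79.11 and 8.33, 0.13) and RASSF1 (69.29 and 10.07, 0.19). For gtsf1 they were npm1a (247.73 and 398.25, 0.071) and h3f3d (267.86 and 334.41, 0.21). At less extreme levels, near matches were closer. The nearest genes were xrcc1 and NDUFB7 for piwil2, cst14a.2 and MTA3 for asz1, FBXO38 and ERI1 for henmt1, and TRPC4AP and SUCLG1 for rnf17, at distances from 0.0034 to 0.078 log2 units. Over only 2 libraries such nearness says no more than that the levels were alike.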

How the data were processed

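RNA of gonads from wild-type adult zebrafish, 3 adults pooled for each organ, was extracted with Trizol and its libraries were read by BGISEQ-500 sequencing, per the labels' protocols. RSEM, HISAT and Bowtie2 and the build GRCz10 are named in the submitters' processing notes; no source used here gives their roles or versions, the annotation or the strand setting. Per the file headers, the values deposited by the authors are FPKM, with 2 decimals. The smallest value, 0.01 (430 genes in testis, 3540 in ovary), was read as a stand-in for 0.

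Symbols were found for 21881 of the 24539 Ensembl identifiers. A symbol carried by several measured identifiers was left out, and single synonyms in a RefSeq table (GRCz12tu) added no further member. Log2 ratios used a pseudocount of 1 FPKM, and calls used 2-fold and a minimum of 1 FPKM; with 1 library for each organ no test was made. Totals were 562394 FPKM in testis and 572635 in ovary. Read counts are unknown. Ratios of testis to ovary among 1205 low genes piled up near 1.08 (84 genes) and 2.17 (77), against 22 in an equal window at 1.53, as whole-read steps would if 1 read were worth 1.08 times as much FPKM in testis.

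The members, gene lists and size rule were chosen with earlier results of these data known. Named were the members, wider-list genes at 10 FPKM or more in either library or higher in ovary, the 6 most abundant microRNA and siRNA genes, 5 germ cell genes, 2 nearest genes and the chromosome neighbours of each member, and, of each marker list, the 2 with the highest mean, of which those of spermatocytes are given. Alternatives tried were other pseudocounts (0.1 and 5), other minimums (none and 5 FPKM), a rule of 4-fold, 4 other scalings and, for ratios to ddx4, dazl and the germ cell list. The trimmed mean left out 30% of ratios and 5% of abundances at each end. Scripts were tested on simulated data and ran in Python 3.11.15 with numpy 2.4.6 and pandas 2.3.3.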

Additional observations from a re-analysis of the deposited data

How the results depend on the processing

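No paired analysis was possible because each organ had 1 library, and for the same reason no library could be left out. The 3 genes higher in testis stayed 3 under both other pseudocounts, both other minimums and the scale that left out the 100 top genes of each library, and were 2 under a 4-fold rule and under the other 3 scalings. The number higher in ovary was 0 as deposited and 2 under the trimmed mean, the zero median of all genes and the zero median of the germ cell list. Under those 3 scalings the median log2 ratio of the 7 genes was -0.38, -0.24 and -0.15, in place of 0.56, which follows from the shifts of 0.98, 0.80 and 0.71. The median difference relative to ddx4, -2.04, turned to 2.60 relative to the median FPKM of the germ cell list. That median fell on a different gene in each library, so the turn is not one against a fixed gene. Under a 4-fold rule the wider pathway had 6 genes higher in testis and 1 in ovary, in place of 10 and 4, and the microRNA and siRNA list had 2 higher in testis, as before, and 1 higher in ovary in place of 6. That list had 1 gene higher in testis, in place of 2, at a pseudocount of 5 or a minimum of 5 FPKM. The 4-fold rule called 21.6% of all genes towards testis and 6.19% towards ovary. Over all genes, 8590 higher in testis and 3162 in ovary became 4377 and 2235 at a pseudocount of 5, 5331 and 2852 at a minimum of 5 FPKM, 4106 and 1180 under the 4-fold rule, 4982 and 5781 with the trimmed mean, 4777 and 5779 with the median set to 0 and 5093 and 5484 with the germ cell list. The depth of both libraries is unknown, so the counting error of these values could not be given.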

Other observations

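The genes beside the Piwi and piRNA biogenesis genes on the chromosome had mixed levels. Neighbours were taken from the gene order of the RefSeq assembly GRCz12tu, which is not the build of the files, as the nearest measured gene on each side. Of the 14 neighbours, 5 did not reach 1 FPKM. Of the neighbours that did reach it, 4 were higher in testis, 1 was higher in ovary and 4 lay within 2-fold. Over all genes that reached it, these shares were 45.1%, 16.6% and 38.3%. The neighbours of piwil1 were ADGRD1 (2.85 FPKM in testis and 2.45 in ovary) and FZD10 (1.3 and 1.14), and those of piwil2 were SLC39A14 (3.11 and 2.66) and htr7c (0.01 and 0.31). Beside pld6 stood rab3da, which was higher in ovary (9.99 FPKM in testis and 30.59 in ovary). A neighbour of henmt1, PPIL6, read 89.47 FPKM in testis and 0.27 in ovary, where henmt1 itself was nearly even. A neighbour of rnf17, the centriole gene cpap, read 49.33 and 8.85. The chloride channel gene CFTR beside asz1 read 9.3 and 0.22, and letmd1 beside gtsf1 read 39.9 and 17.57.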
